A study of Mus musculus with 23 samples.

Results

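The 10 genes described here are read-outs of the ERK pathway: the phosphatases Dusp4, Dusp5 and Dusp6, the Sprouty inhibitors Spry1, Spry2 and Spry4, the transcription factors Etv4, Etv5 and Fosl1, and Phlda1. They were chosen by name, all 10 were found by gene identifier in both deposited tables, which list 36793 genes, and all 10 passed the filter on low counts in every comparison. RNA was sequenced in 23 libraries of 8 groups from 3 mouse models of head and neck cancer: a MEER line with human papillomavirus (HPV+ MEER) and a MEER line without it (HPV- MEER), both grown in C57/Bl6 mice, and SCCVII (also spelled SSCVII in the labels), a line without the virus grown in C3H/HeJ mice. For each model there were 3 libraries of the cultured tumour line and 3 of macrophages sorted from subcutaneous tumours by CD45, CD11b and high F4/80 without Gr1, each macrophage library being pooled from 3 to 4 mice. Colonies grown for 9 days in a haematopoietic stem cell medium from sorted macrophages gave 3 libraries for HPV- MEER and 2 for SCCVII. The libraries of a line were aliquots of a culture, so p-values between lines measure the spread between aliquots, each viral status rests on 1 MEER line, and the SCCVII tumour and its mouse strain cannot be told apart. MEER lines are generally known as tonsil epithelium transformed with a Ras oncogene, and the labels used here do not describe their constructs.

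ERK is the last kinase of a cascade that runs from receptor tyrosine kinases through Ras, Raf and MEK. Active ERK switches on genes that include its own brakes: Sprouty proteins hold back signalling below the receptor, and dual-specificity phosphatases remove the activating phosphates from ERK itself. Etv4, Etv5 and Fosl1 are transcription factors of the ETS and AP-1 families whose genes are among the outputs, and Phlda1 encodes a pleckstrin homology-like protein induced by growth factors. In macrophages the cascade works below CSF1R, the receptor that keeps these cells alive. RNA levels of these genes are an indirect reading of ERK, whose phosphorylation was not measured in the files used here.

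The genes lie at separate loci of the mouse genome (GRCm38, GENCODE M21): Dusp4 at chr8:34807297-34819894, Dusp5 at chr19:53529109-53542431, Dusp6 at chr10:99263231-99267489, Spry1 at chr3:37639947-37644598 and Spry2 at chr14:105891947-105896819. Etv4 lies at chr11:101769742-101785371, Etv5 at chr16:22381309-22439719, Fosl1 at chr19:5447547-5455946 and Phlda1 at chr10:111506286-111508645. In Fosl1, 1163 of 2033 exonic bases are shared with Ccdc85b on the opposite strand, which held 67 to 1407 counts per library. Dusp5, Spry1 and Phlda1 overlap antisense or unnamed transcripts over 547 of 2473, 710 of 2906 and 727 of 2205 exonic bases. The libraries came from a stranded kit but the counting strand is not stated, so the levels of these 4 genes are uncertain to the extent that the partner was transcribed. RefSeq promoters (GRCm38.p6, 250 bases before to 50 after the start) matched 5 of the 10 genes. Those of Dusp5, the gene with the widest range among macrophages, Dusp6, the highest of the 10 in macrophages, and Spry2, the one with an ETS match, are printed 5′ to 3′ from chr19:53528895-53529194 (+ strand), chr10:99262981-99263280 (+ strand) and chr14:105896770-105897069 (- strand), with motif matches in capitals.
Dusp5: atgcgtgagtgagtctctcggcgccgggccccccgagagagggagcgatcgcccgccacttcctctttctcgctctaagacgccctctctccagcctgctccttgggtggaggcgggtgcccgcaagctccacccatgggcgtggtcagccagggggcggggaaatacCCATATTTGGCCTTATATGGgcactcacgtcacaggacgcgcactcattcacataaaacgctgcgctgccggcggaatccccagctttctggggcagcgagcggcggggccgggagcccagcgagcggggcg
Dusp6: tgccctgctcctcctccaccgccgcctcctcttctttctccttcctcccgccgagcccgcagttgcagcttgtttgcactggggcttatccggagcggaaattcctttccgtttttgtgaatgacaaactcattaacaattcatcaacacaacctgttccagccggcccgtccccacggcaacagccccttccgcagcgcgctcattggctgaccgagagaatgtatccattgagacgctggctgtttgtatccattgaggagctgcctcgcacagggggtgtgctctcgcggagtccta
Spry2: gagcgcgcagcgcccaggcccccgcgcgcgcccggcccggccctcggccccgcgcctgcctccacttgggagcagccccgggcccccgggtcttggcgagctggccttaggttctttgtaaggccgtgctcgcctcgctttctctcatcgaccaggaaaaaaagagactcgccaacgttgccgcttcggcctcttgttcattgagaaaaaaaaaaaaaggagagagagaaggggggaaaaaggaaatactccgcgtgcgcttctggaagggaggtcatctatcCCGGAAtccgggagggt
Letters searched on both strands were CCGGAA for ETS factors, TGANTCA for AP-1 and TGACGTCA for CREB, present in 14.9%, 7.8% and 1.8% of 32851 mouse promoters of this length, and the CArG box of serum response factor, added after the Dusp5 sequence was seen, present in 1.6%. Dusp5 held 2 CArG matches, CCATATTTGG and CCTTATATGG, starting at -82 and -72 from the start site and sharing no base. Spry2 held 1 ETS match, starting at 33. The Dusp6 window, those of Spry1 and the 2 of Etv5 held none of the 4 motifs.

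Depth ran from 26848759 to 47609481 counts per library, so 3 counts correspond to 0.063 to 0.112 CPM (counts scaled to the library total), the scale on which levels are given below after TMM scaling over the 23 libraries. The summed level of 7 macrophage markers, in TPM (scaled by transcript length), was 3032 to 5121 in macrophages and 4.81 to 33.1 in lines. The SCCVII line had 845 to 918 TPM of 6 fibroblast markers, against 23.7 to 47.0 in the HPV- MEER line. Its 7 epithelial markers summed to 1197 to 1352 TPM, against 461 to 799 in the HPV- MEER line and 2081 to 3034 in the HPV+ MEER line. Of these markers, Krt5, Krt14 and Epcam held no count in the SCCVII line, and Krt5 held none in the HPV+ MEER line. The macrophage marker sum was 1944, 71.7 and 25.3 TPM in HPV- MEER colony libraries 1, 2 and 3, and 1101 and 128.5 in SCCVII colony libraries 1 and 2. Libraries 2 and 3 of the HPV- MEER colonies and library 2 of the SCCVII colonies were thus low in macrophage markers. The cultures had started from sorted macrophages. Colony counts and changes are given with all libraries and, after them, without the 3 libraries low in these markers. Library 1 of the HPV- MEER colonies, the one that remains in that group, had 1258 TPM of 5 neutrophil markers, against 8.60 and 7.14 in libraries 2 and 3 and 41.5 and 49.96 in the SCCVII colonies. Among HPV- MEER macrophages (libraries 1, 2 and 4) library 4 stood apart, with 134.5 TPM of 7 epithelial markers against 59.3 and 42.2 in libraries 1 and 2, and a macrophage sum of 4242 against 4869 and 5121. Results that turn on library 4 are given without it too.

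**Figure D1:**
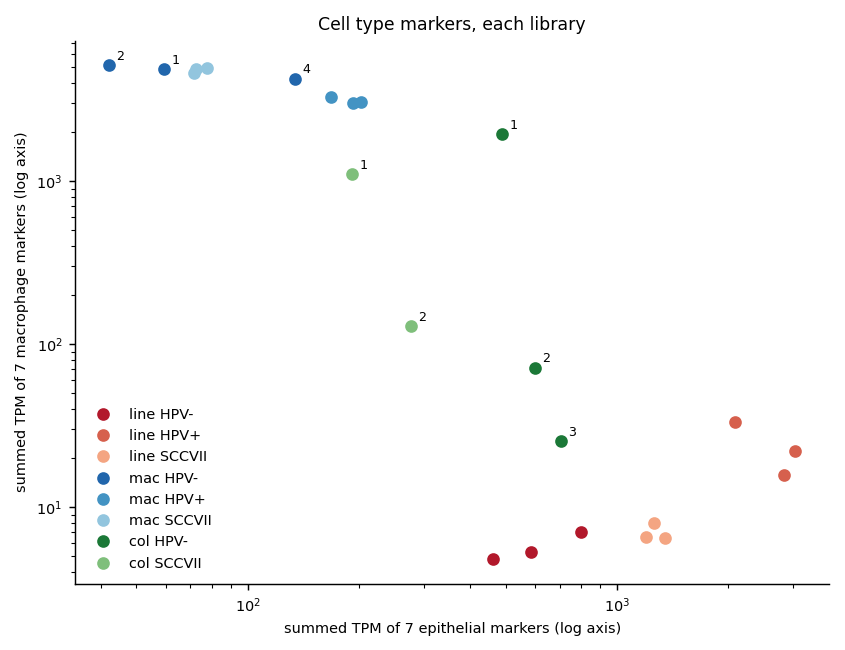
Summed TPM of 7 macrophage markers (y, log axis) against 7 epithelial markers (x, log axis), 1 point per library, coloured by group; numbers give the replicate for colonies and HPV- MEER macrophages. The 9 macrophage libraries sit at the top left, the 9 line libraries at the bottom right, and 3 of the 5 colony libraries lie at 128.5 TPM or less of macrophage markers.

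Fosl1 led the 10 genes in the lines and Dusp6 in the macrophages. The summed level was 799.5 ± 16.8 TPM (SD, n = 3) in the HPV- MEER line, 983 ± 55.1 in the HPV+ MEER line and 314 ± 16.7 in the SCCVII line. It was 418 ± 14.6 in macrophages of HPV- MEER, 487 ± 12.2 in those of HPV+ MEER and 333 ± 9.80 in those of SCCVII. Colonies had 657 ± 112 TPM in HPV- MEER (n = 3), where Phlda1 led at 24.8%, and 414 ± 207 in SCCVII (n = 2), where Fosl1 led at 32.0%. Fosl1 was the largest part of the sum in all 3 lines, at 25.9%, 26.2% and 49.7% for HPV- MEER, HPV+ MEER and SCCVII. Dusp6 was the largest part in all 3 macrophage groups, at 67.9%, 46.2% and 67.7% in the same order. Etv5 came next in HPV- MEER and SCCVII macrophages, at 16% and 19.5%. In macrophages of HPV+ MEER the next was Dusp5, at 29.2%. Across the means of the 6 line and macrophage groups in CPM, the highest exceeded the lowest by 89.8-fold for Fosl1, 84.1-fold for Spry4 and 72.0-fold for Dusp5, and by 3.59-fold for Etv5, the smallest of these ratios. With the colonies included the Spry4 ratio was 124-fold, which rests on SCCVII colony library 2 (127 CPM, against 44.5 in library 1).

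**Figure D2:**
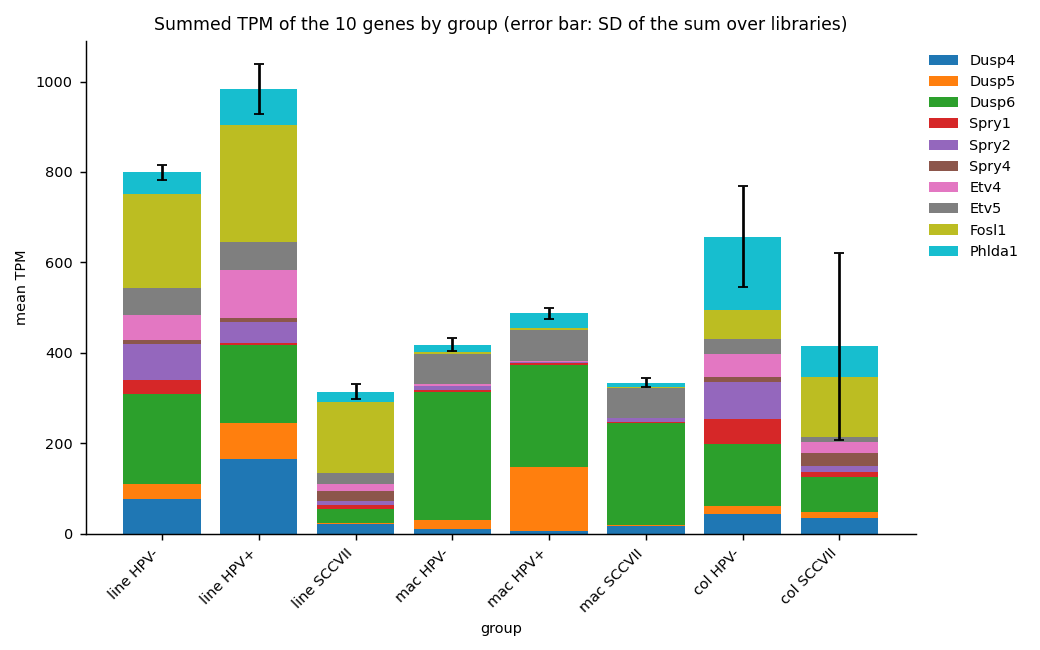
Mean TPM of each of the 10 genes (stacked bars, y from 0) in the 8 groups, with the SD of the summed level over the libraries of a group as the error bar (n = 3, or 2 for SCCVII colonies). Fosl1 takes the largest share of each line and Dusp6 of each macrophage group, and the SCCVII line has the lowest sum, 314 TPM.

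Between the lines, SCCVII was low in most of the genes. Against the HPV- MEER line 8 of the 10 fell and 1, Spry4, rose, beside 31.6% of all 14396 genes that were called lower and 27.2% called higher (edgeR's quasi-likelihood test, Benjamini-Hochberg adjusted p under 0.05). The median log2 change of the 10 was -1.73, and that of all genes -0.06. Against the HPV+ MEER line 7 fell and 2, Spry1 and Spry4, rose, beside 34.1% of genes lower and 30.0% higher, and the median of the 10 was -1.98 beside -0.05. The HPV+ MEER line against the HPV- MEER line gave 4 higher (Dusp4, Dusp5, Etv4 and Phlda1) and 2 lower (Spry1 and Spry2), beside 23.2% and 23.9% of all genes, with a median of 0.03 beside -0.01. The 2 comparisons with the HPV- MEER line share its libraries. Fosl1 was not called in any of the 3 comparisons, but fell in SCCVII against HPV- MEER by 0.60 on the log2 scale without HPV- MEER line library 3 (adjusted p = 0.00231).

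Between macrophages Dusp5 had the largest changes of the 10 genes in all 3 comparisons. In SCCVII macrophages against each MEER group, more of the 10 were called lower than higher. Over all genes the shares called higher and lower lay close together there. Between the MEER groups more of the 10 were called higher than lower. Whether the 10 differed from all genes in direction was not tested. HPV+ MEER macrophages had 3 of the 10 higher (Dusp5, Etv5 and Phlda1) and 1 lower (Spry2) than HPV- MEER macrophages, beside 22.8% of 14085 genes higher and 25.9% lower, with a median of -0.04 for the 10 and -0.05 for all genes. SCCVII macrophages had 0 higher and 4 lower (Dusp5, Dusp6, Spry1 and Phlda1) than HPV- MEER macrophages, beside 18.7% higher and 20.5% lower, with medians of -0.57 and -0.02. Against HPV+ MEER macrophages, SCCVII macrophages had 2 higher (Dusp4 and Spry2) and 5 lower (Dusp5, Dusp6, Spry1, Etv5 and Phlda1), beside 32.2% higher and 30.9% lower, with medians of -0.54 and 0.01. With library totals alone as the scaling, 1866 genes were higher and 6595 lower between HPV+ and HPV- MEER macrophages and 6706 and 2985 between SCCVII and HPV+ MEER, in place of 3206 and 3647 and of 4542 and 4359. The 3 macrophage groups share libraries between these comparisons. In sorted cell pools, fewer cells of a type and less RNA per cell cannot be told apart.

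Macrophages against the line of their own tumour model split the genes by name. Dusp6 and Etv5 were higher in macrophages of all 3 models, and Spry4, Etv4, Fosl1 and Phlda1 were lower in all 3. For HPV- MEER, 2 rose and 7 fell, beside 38.7% and 37.4% of 15835 genes, with a median of -2.25 for the 10 and 0.01 for all genes. For HPV+ MEER, 4 rose and 6 fell, beside 39.6% and 39.1%, with medians of -1.94 and 0.00. For SCCVII, 2 rose and 5 fell, beside 37.4% and 35.5%, with medians of -0.68 and 0.00. With library totals alone, 4881 genes rose and 7317 fell for HPV- MEER and 4255 and 8583 for HPV+ MEER, in place of 6131 and 5924 and of 6278 and 6198. Sorted cells from tumours and cultured cells also differ in handling, which cannot be told apart from cell type.

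**Figure D3:**
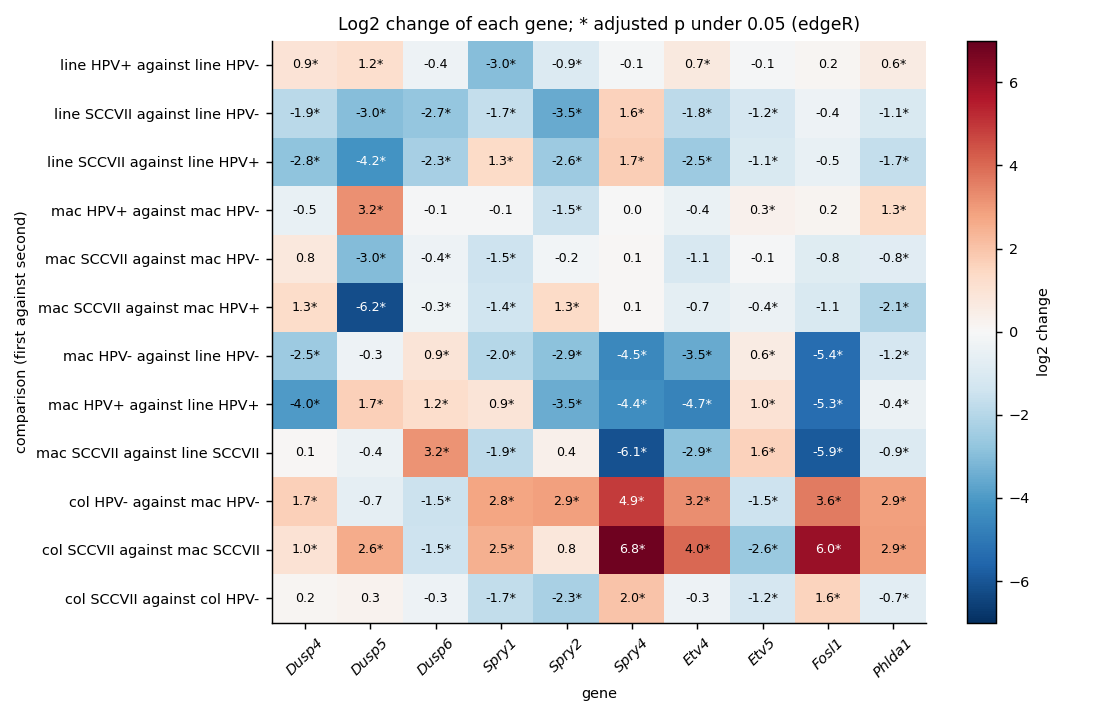
Log2 change of each of the 10 genes (columns) in 12 comparisons (rows, first group against second) by edgeR; colour and number give the change, and a star marks an adjusted p under 0.05. Dusp6 and Etv5 are positive and Fosl1, Spry4 and Etv4 negative in the 3 rows of macrophages against lines, and Dusp5 spans -6.21 to 3.19 among the macrophage rows.

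Dusp5, which encodes a nuclear phosphatase of ERK, gave the widest contrast between the macrophage groups. Its level was 288, 229 and 276 CPM in HPV+ MEER macrophages. It was 34.0, 27.7 and 26.9 CPM in HPV- MEER macrophages and 3.01, 3.67 and 4.33 in SCCVII macrophages. The 3 groups did not overlap, and the group means stood at 264, 29.5 and 3.67 CPM. Dusp5 rose in HPV+ against HPV- MEER macrophages by a log2 change of 3.19 ± 0.13 (SE, adjusted p = 5.08e-07) and in SCCVII against HPV- MEER macrophages it fell by 3.02 ± 0.15 (adjusted p = 7.68e-07). The lines came in the same order at other levels: 81.2, 92.2 and 104 CPM in HPV+ MEER, 51.9, 39.6 and 29.8 in HPV- MEER and 4.84, 6.05 and 5.21 in SCCVII. These groups did not overlap either, with a log2 change of 1.18 ± 0.18 for HPV+ against HPV- MEER (adjusted p = 0.000494) and -3.01 ± 0.20 for SCCVII against HPV- MEER (adjusted p = 8.44e-07). HPV+ MEER macrophages exceeded their own line by 1.68 ± 0.17 (adjusted p = 1.62e-07), whereas the other models gave -0.33 ± 0.17 for HPV- MEER and -0.41 ± 0.20 for SCCVII, neither called (adjusted p = 0.0914 and 0.0736). The change passed the threshold as a fall for HPV- MEER without macrophage library 1 (adjusted p = 0.0498) or line library 3 (0.00953) and for SCCVII without macrophage library 3 (0.0401).

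Markers of other cells moved with the HPV+ MEER macrophages. The summed level of 4 dendritic cell markers was 31.9 to 113 TPM there and 5.24 to 7.78 in HPV- MEER macrophages, with 2 of the 4 called higher and none at 0 counts in either group. The 3 endothelial markers summed to 56.0 to 66.9 against 8.80 to 16.4 TPM, with 1 called higher and 1 lower. The 7 epithelial markers summed to 168 to 203 against 42.2 to 134.5 TPM, with 2 of the 5 tested called higher. Krt5 was at 0 counts in HPV- MEER macrophages. Of 6 fibroblast markers 1 was called lower and 0 higher, and the 1 neutrophil marker tested was lower. Of 3 T cell markers 0 were called. The 6 mast cell markers summed to 3.64 to 6.80 against 1.43 to 2.83 TPM, with the 1 tested (Kit) called higher. The 7 macrophage markers summed to 3032 to 3291 against 4242 to 5121 TPM, with 4 of 7 called lower and 1 higher. The part of these cells in the Dusp5, Phlda1 and Etv5 rises and the Spry2 fall was not tested.

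Markers also moved with the SCCVII macrophages. Against HPV- MEER macrophages, 3 of 3 T cell markers were called lower (1.02 to 7.97 against 16.3 to 35.6 TPM summed). The same held for 2 of 3 endothelial markers (4.35 to 6.19 against 8.80 to 16.4 TPM, 1 being higher), 2 of 6 fibroblast markers (5.56 to 7.35 against 11.8 to 36.1) and 1 of 4 dendritic markers (1.76 to 3.64 against 5.24 to 7.78). The 1 neutrophil marker and the 1 mast marker tested were lower too, with sums of 0.86 to 1.15 against 4.22 to 22.6 and of 0.27 to 0.58 against 1.43 to 2.83 TPM. The neutrophil markers Ly6g and Camp were at 0 counts in both groups, and S100a9 and Elane in SCCVII only. The macrophage markers had 1 higher and 2 lower, with overlapping sums. Their part in the Dusp5, Dusp6, Spry1 and Phlda1 falls was not tested.

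Dusp6, the cytoplasmic phosphatase of ERK, was the most abundant of the 10 genes in macrophages and varied little between them. It stood at 507, 578 and 425 CPM in HPV- MEER macrophages, 449.6, 522 and 454 in HPV+ MEER and 398, 394 and 389 in SCCVII. The MEER groups overlapped, and SCCVII lay below each of them. The falls in SCCVII were small, by 0.37 ± 0.10 against HPV- MEER (adjusted p = 0.0187) and by 0.32 ± 0.10 against HPV+ MEER (adjusted p = 0.0239). Each of these calls was lost when any of several single libraries was left out, for HPV- MEER without library 2 (adjusted p = 0.0554) and without SCCVII library 1, 2 or 3 (0.053 to 0.0628), and for HPV+ MEER without library 2 (0.0942) and without SCCVII library 1, 2 or 3 (0.0582 to 0.0724). Scaling by library totals alone also ended the call against HPV+ MEER, at -0.06 (adjusted p = 0.538), and made Dusp6 lower in HPV+ than in HPV- MEER macrophages, at -0.31 (adjusted p = 0.011). With all 23 libraries in the fit both SCCVII calls were lost (adjusted p = 0.37 and 0.399). The lines differed far more: 205, 359.8 and 311 CPM in HPV- MEER, 202, 279.5 and 194 in HPV+ MEER, and 46.9, 49.6 and 48.4 in SCCVII. Dusp6 fell in the SCCVII line by 2.69 ± 0.21 against HPV- MEER (adjusted p = 2.61e-06), with no overlap, while the MEER lines overlapped and were not called apart (without HPV- MEER line library 1 the HPV+ MEER line fell by 0.59, adjusted p = 0.0146). Macrophages exceeded their line by a log2 change of 0.91 ± 0.18 in HPV- MEER, 1.24 ± 0.18 in HPV+ MEER and 3.16 ± 0.19 in SCCVII (adjusted p = 0.000212, 8e-06 and 2.99e-10).

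Dusp4, a nuclear phosphatase of ERK and other MAP kinases, was mostly a gene of the MEER lines. It reached 236, 181 and 209 CPM in the HPV+ MEER line, 92.1, 97.1 and 137 in the HPV- MEER line, and 30.2, 31.4 and 31.8 in the SCCVII line, with no overlap between the lines. HPV+ MEER exceeded HPV- MEER by a log2 change of 0.93 ± 0.15 (adjusted p = 0.000714), and SCCVII fell below HPV- MEER by 1.90 ± 0.16 (adjusted p = 4.06e-06). Macrophages had 12.3, 13.4 and 26.5 CPM in HPV- MEER, 11.9, 9.37 and 14.4 in HPV+ MEER, and 27.5, 30.3 and 32.1 in SCCVII. SCCVII was thus the lowest of the lines and the highest of the macrophage groups. SCCVII macrophages exceeded those of HPV+ MEER by 1.29 ± 0.28 (adjusted p = 0.00279). Against HPV- MEER macrophages the change was 0.76 ± 0.27 and missed the threshold (adjusted p = 0.0513), and it was 1.21 (adjusted p = 0.000104) without HPV- MEER library 4, the highest of its group. With every library kept, this rise was called with RLE size factors (edgeR, adjusted p = 0.0489), no filter on low counts (0.0278) and DESeq2 (0.0166). It was not called with library totals alone (0.0793) or with all 23 libraries in the fit (0.0664).

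Among the Sprouty genes, Spry1 set the MEER lines apart. It stood at 29.1, 35.7 and 49.9 CPM in the HPV- MEER line, 4.95, 6.05 and 3.75 in the HPV+ MEER line and 12.2, 12.8 and 13.9 in the SCCVII line. No group overlapped another, and the HPV+ MEER line fell below the HPV- MEER line by 2.97 ± 0.24 on the log2 scale (adjusted p = 6.81e-06). Macrophages of the MEER models did not show that gap, at 6.97, 9.90 and 9.91 CPM for HPV- and 8.25, 8.24 and 8.36 for HPV+ MEER, which overlapped. SCCVII macrophages were lower, at 2.60, 3.47 and 3.72 CPM, a fall of 1.47 ± 0.18 against HPV- MEER (adjusted p = 0.000261). Macrophages against their line gave a Spry1 change of -1.98 ± 0.21 in HPV- MEER, -1.85 ± 0.22 in SCCVII and 0.92 ± 0.22 in HPV+ MEER (adjusted p = 4.06e-07, 1.35e-06 and 0.00111). The last call was lost with scaling by library totals alone, at 0.26 (adjusted p = 0.303).

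Spry2 had its highest level in the HPV- MEER line, 83.7, 83.5 and 90.2 CPM. It stood at 43.4, 40.8 and 50.1 CPM in the HPV+ MEER line, a fall of 0.95 ± 0.10 (adjusted p = 3.13e-05), and at 7.95, 7.85 and 8.28 in the SCCVII line, a fall of 3.51 ± 0.11 against HPV- MEER (adjusted p = 3.51e-09). The lines did not overlap. In macrophages it was 8.65, 6.48 and 16.7 CPM for HPV- MEER, 3.59, 3.73 and 3.61 for HPV+ MEER, and 9.76, 9.03 and 9.32 for SCCVII. HPV+ MEER macrophages lay below the other groups, with a fall of 1.52 ± 0.31 against HPV- MEER (adjusted p = 0.00294) that became 1.02 without HPV- MEER library 4 (adjusted p = 0.000323). SCCVII was the model in which macrophages and line were not called apart for Spry2.

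Spry4, the remaining Sprouty gene (chr18:38586247-38601415), was close to absent in the macrophages, at 0.37 to 0.98 CPM in HPV- MEER, 0.41 to 1.06 in HPV+ MEER and 0.66 to 0.92 in SCCVII, with 50 to 70 counts summed over each group. The lines had 18.1, 16.7 and 18.7 CPM in HPV- MEER, 18.4, 15.8 and 15.1 in HPV+ MEER, and 57.6, 57.6 and 59.8 in SCCVII. The MEER lines overlapped and SCCVII lay above both, by 1.61 ± 0.11 against HPV- MEER (adjusted p = 1.24e-06). Spry4 was thus the 1 gene of the 10 that rose in SCCVII against each MEER line, apart from Spry1 against HPV+ MEER. Against their own line macrophages changed by -4.5 ± 0.26 in HPV- MEER, -4.37 ± 0.27 in HPV+ MEER and -6.11 ± 0.27 in SCCVII (adjusted p = 2.04e-10, 3.33e-10 and 7.02e-12).

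**Figure D4:**
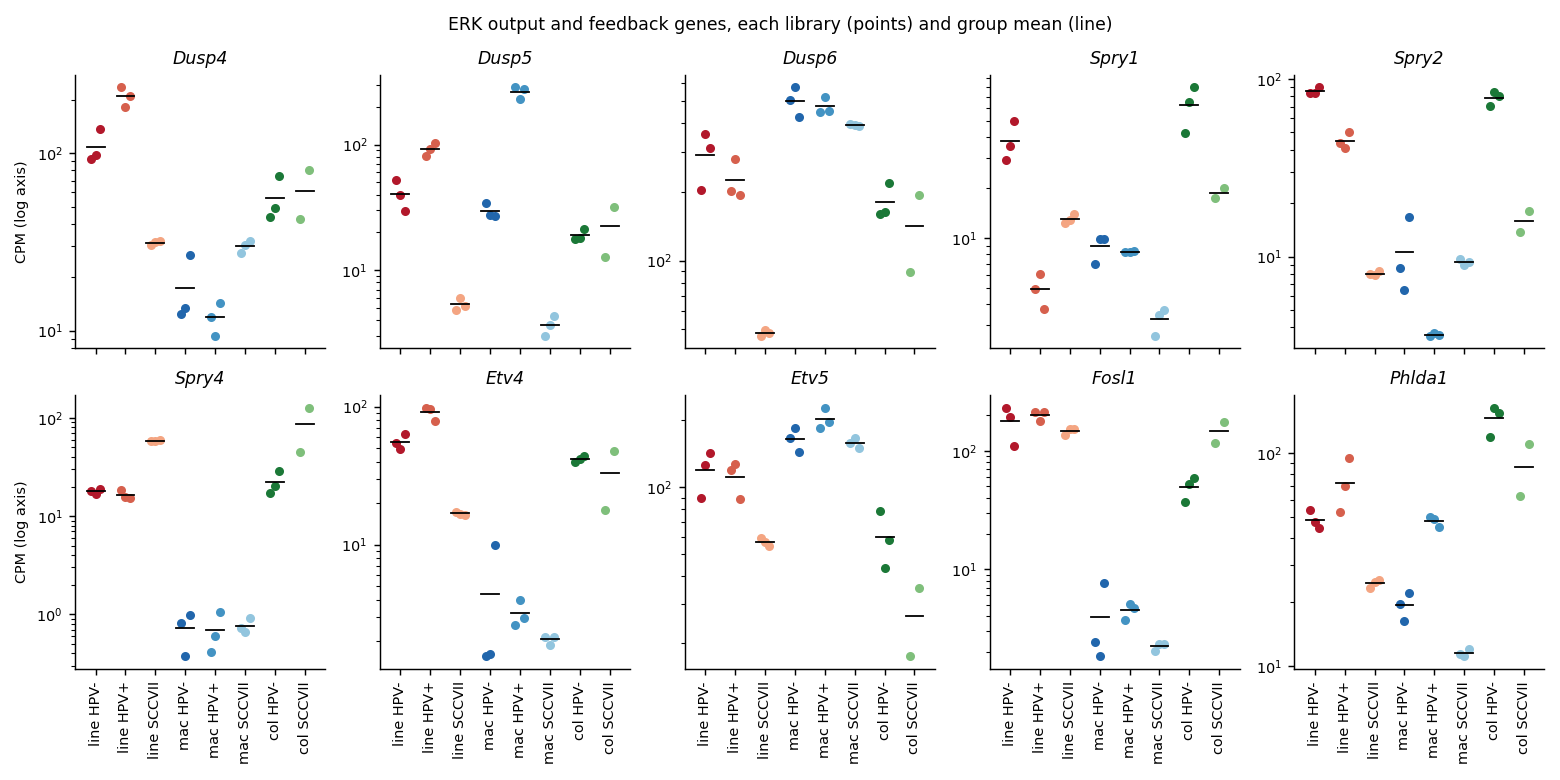
CPM of each of the 10 genes (y, log axis, a separate scale per panel) in every library (points) and the group mean (line) over the 8 groups: 3 cultured lines (red shades), 3 macrophage groups (mac, blue shades) and 2 colony groups (col, green shades). Dusp5 falls from 264 to 3.67 CPM across the macrophage means, and Spry4 and Fosl1 drop from lines to macrophages and are high again in colonies.

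Etv4 and Etv5, related ETS factors, were placed apart. Etv5 was present everywhere, at 144 to 185 CPM in HPV- MEER macrophages, 184 to 228 in HPV+ MEER and 150.2 to 166 in SCCVII macrophages. The lines had 89.2 to 142 CPM in HPV- MEER, 88.6 to 127 in HPV+ MEER and 54.4 to 58.9 in SCCVII. The MEER lines overlapped, and the SCCVII line lay below them by 1.17 ± 0.18 against HPV- MEER (adjusted p = 0.000307). Macrophages exceeded their line by a log2 change of 0.59 ± 0.16 in HPV- MEER, 1.03 ± 0.16 in HPV+ MEER and 1.62 ± 0.16 in SCCVII (adjusted p = 0.00325, 2.08e-05 and 1.7e-07). The call in HPV- MEER was lost with library totals alone, at 0.26 (adjusted p = 0.142), and with all 23 libraries in the fit, at 0.47 (0.0857). The rise in HPV+ against HPV- MEER macrophages was 0.32 ± 0.10 (adjusted p = 0.0266), and it was lost without HPV- MEER library 1 or 4 (adjusted p = 0.0589 and 0.053) or HPV+ MEER library 2 or 3 (0.098 and 0.0507) or with all 23 libraries in the fit (0.41), and was 0.07 with library totals alone (0.477).

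Etv4 was a gene of the lines: 98.3, 96.3 and 78.3 CPM in HPV+ MEER, 54.2, 48.9 and 62.8 in HPV- MEER, and 17.3, 16.8 and 16.5 in SCCVII. These did not overlap, and HPV+ MEER exceeded HPV- MEER by a log2 change of 0.71 ± 0.12 (adjusted p = 0.00104, but 0.267 with all 23 libraries in the fit), while SCCVII fell below HPV- MEER by 1.81 ± 0.13 (adjusted p = 1.29e-06). In macrophages it stood at 1.56, 1.62 and 9.97 CPM in HPV- MEER, 2.63, 3.99 and 2.94 in HPV+ MEER, and 2.16, 1.88 and 2.15 in SCCVII. A single library, HPV- MEER library 4, was the highest of the 9. With it the change between HPV+ and HPV- MEER macrophages was -0.45 ± 0.64 and was not called (adjusted p = 0.595). Without it Etv4 was higher in HPV+ MEER macrophages by 1.03 (adjusted p = 0.00538), so the direction rests on that library. Macrophages differed from their line by -3.52 ± 0.48 in HPV- MEER (-4.99 without library 4), -4.67 ± 0.51 in HPV+ MEER and -2.89 ± 0.50 in SCCVII (adjusted p = 5.46e-06, 3.94e-07 and 6.99e-05). Per transcript length, Etv5 exceeded Etv4 in macrophages, with 66.7 ± 4.29 against 3.95 ± 4.79 TPM in HPV- MEER (SD, n = 3). In the lines, Etv5 and Etv4 stood at 59.2 ± 12.2 and 56.5 ± 8.89 TPM in HPV- MEER, 26.1 ± 0.66 and 15.6 ± 1.09 in SCCVII, and 61.9 ± 13.3 and 107 ± 25.1 in HPV+ MEER, the line in which Etv4 was the higher.

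Fosl1, a Fos-related subunit of AP-1, was high in the 3 lines and low in all macrophages. It stood at 232, 194 and 109.8 CPM in the HPV- MEER line, 212, 179 and 213 in HPV+ MEER, and 136, 152 and 154 in SCCVII. The HPV- MEER libraries spanned the levels of both other lines. The SCCVII libraries lay below those of HPV+ MEER, by a log2 change of -0.54 ± 0.22 that was not called (edgeR, adjusted p = 0.0544). Macrophages had 2.43, 1.84 and 7.61 CPM in HPV- MEER, 3.69, 5.12 and 4.75 in HPV+ MEER, and 2.06, 2.31 and 2.36 in SCCVII. The log2 change from line to macrophages was -5.36 ± 0.41 in HPV- MEER (-6.25 without library 4), -5.31 ± 0.41 in HPV+ MEER and -5.90 ± 0.43 in SCCVII (adjusted p = 5.47e-09, 4.95e-09 and 2.89e-09). Between HPV+ and HPV- MEER macrophages Fosl1 was not called (adjusted p = 0.74), and without HPV- MEER library 4 it was higher in HPV+ MEER by 1.11 (adjusted p = 0.00223). Library 4 was also the library with the most epithelial marker RNA of its group, and the part of that RNA in its Etv4, Fosl1, Spry2 and Dusp4 levels was not tested.

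Phlda1 followed the order of Dusp5 among the macrophages with smaller steps. Its level was 50.2, 49.1 and 44.9 CPM in HPV+ MEER macrophages, 19.7, 16.4 and 22.2 in HPV- MEER and 11.4, 11.1 and 12.1 in SCCVII. The groups did not overlap, with a log2 change of 1.33 ± 0.11 for HPV+ against HPV- MEER (adjusted p = 1.44e-05) and -0.77 ± 0.11 for SCCVII against HPV- MEER (adjusted p = 0.000635). In the lines it stood at 53.3, 70.1 and 94.8 CPM in HPV+ MEER, 53.9, 47.3 and 44.6 in HPV- MEER, and 23.3, 24.7 and 25.5 in SCCVII. The MEER lines overlapped, and the rise of 0.57 ± 0.17 in HPV+ MEER (adjusted p = 0.0198) was lost without HPV- MEER library 2 or 3 or HPV+ MEER library 3 (adjusted p = 0.0563 to 0.0627). SCCVII lay below HPV- MEER by 1.08 ± 0.17 (adjusted p = 0.000381). Macrophages differed from their line by -1.20 ± 0.16 in HPV- MEER, -0.43 ± 0.16 in HPV+ MEER and -0.95 ± 0.16 in SCCVII (adjusted p = 4.28e-06, 0.0196 and 6.48e-05). The HPV+ MEER call was lost without macrophage library 3 (adjusted p = 0.0699) or line library 3 (0.185).

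The tumour-model differences in macrophages were set against those in lines by an interaction term in the fit of all 18 libraries, which asks whether the change between models is the same in the 2 cell types. For HPV+ against HPV- MEER, 4 of the 10 differed, beside 41.0% of 15835 genes in either direction (3076 positive and 3421 negative, or 1937 and 5532 with library totals alone). The difference (macrophage change minus line change) was 2.90 ± 0.31 for Spry1, 2.01 ± 0.24 for Dusp5, 0.77 ± 0.22 for Phlda1 and -1.45 ± 0.34 for Dusp4 (adjusted p = 1.94e-06, 7.29e-06, 0.0111 and 0.00273). Spry1 fell between the lines and had overlapping levels in the macrophages, whereas Dusp5 rose in both and rose more in macrophages. Single libraries also kept other genes from being called: Dusp6 and Etv5 without HPV- MEER line library 1 (0.54 and 0.61, adjusted p = 0.0406 and 0.0179), Spry2 without HPV- MEER macrophage library 2 (-0.82, 0.0184), and Etv4 without macrophage library 1 or 2 (-1.54 each, 0.0435 and 0.0446), but 0.29 without library 4. For SCCVII against HPV- MEER, 5 of the 10 differed, beside 43.6% in either direction. The difference was 3.25 ± 0.32 for Spry2, 2.60 ± 0.34 for Dusp4, 2.26 ± 0.25 for Dusp6, 1.03 ± 0.23 for Etv5 and -1.61 ± 0.37 for Spry4 (adjusted p = 8.53e-07, 1.52e-05, 2.87e-06, 0.00163 and 0.00229). Spry2, Dusp4, Dusp6 and Etv5 fell in the SCCVII line and either did not fall in SCCVII macrophages or fell less. Dusp5 was not called in this term, with changes of -3.01 between lines and -3.02 between macrophages. The 2 interactions share the HPV- MEER libraries. Without HPV- MEER macrophage library 4, Etv4 was called too in the SCCVII term, at 2.12 (adjusted p = 3.26e-06).

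**Figure D5:**
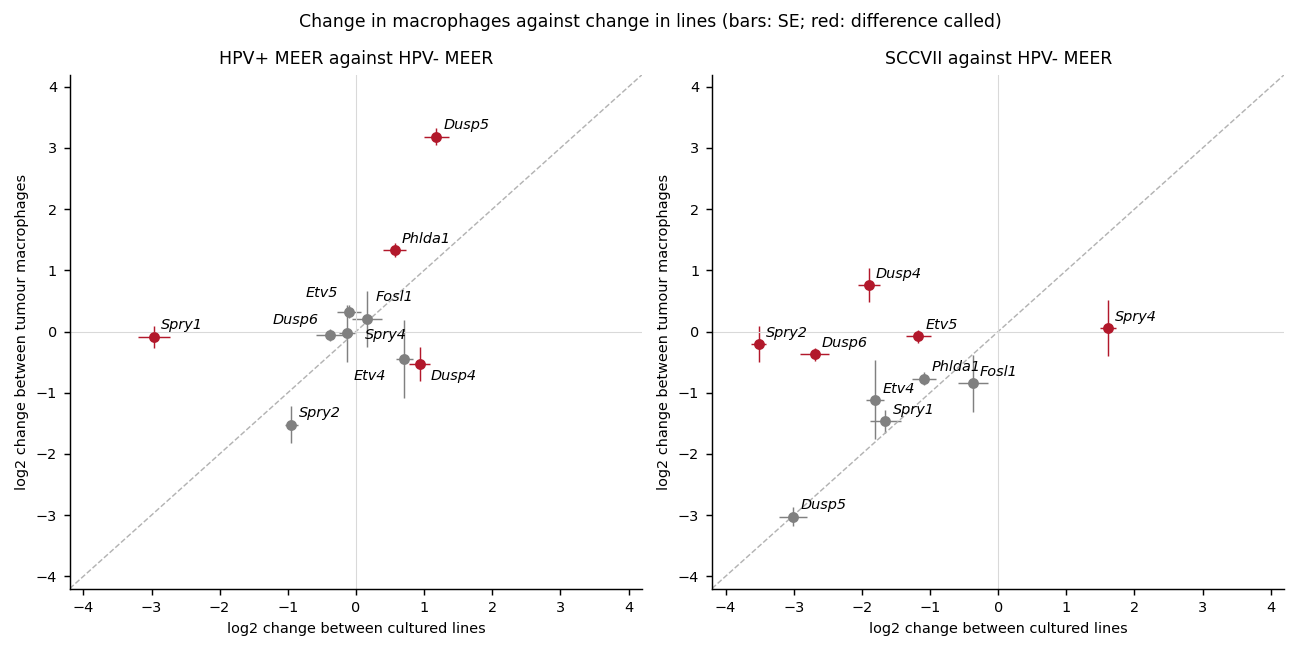
Log2 change between macrophage groups (y) against the log2 change between the lines of the same models (x), with SE bars; left, HPV+ against HPV- MEER, and right, SCCVII against HPV- MEER, with the dashed line marking equal change. Red points are genes whose 2 changes differ (interaction, adjusted p under 0.05): 4 on the left and 5 on the right, where Dusp5 lies on the dashed line near -3.02.

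Colonies had the genes in proportions unlike those of the sorted macrophages. For HPV- MEER, 7 of the 10 were higher in colonies than in macrophages and 2, Dusp6 and Etv5, were lower, beside 34.0% of 16238 genes higher and 28.7% lower, with a median of 2.82 for the 10 and 0.02 for all genes. For SCCVII, 7 were higher and the same 2 genes were lower, beside 29.7% and 22.3%, with medians of 2.56 and 0.07. With the 3 colony libraries low in macrophage markers left out, which leaves 1 colony library a group and assumes that it varies like the other groups, the counts were 7 higher and 2 lower for HPV- MEER and 6 and 2 for SCCVII, Dusp4 being lost at 0.48 (adjusted p = 0.338). Leaving out SCCVII colony library 2 alone gave the same loss (adjusted p = 0.401), as did leaving out any 1 of the SCCVII macrophage libraries (0.0821 to 0.11). With library totals alone, 6619 genes rose and 3359 fell for HPV- MEER in place of 5513 and 4665. The HPV- MEER colonies come from the smaller deposited table, and any difference in handling goes along with that group.

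Spry4, Fosl1 and Etv4, low in macrophages, were high in every colony library. Spry4 stood at 17.1, 20.4 and 28.9 CPM in HPV- MEER colonies and 44.5 and 127 in SCCVII colonies, a log2 change of 4.90 ± 0.50 and 6.80 ± 0.55 against macrophages (adjusted p = 0.000107 and 2.23e-05). Fosl1 stood at 36.7, 52.9 and 58.6 CPM in HPV- MEER colonies and 116 and 176 in SCCVII colonies, changes of 3.61 ± 0.51 and 6.03 ± 0.58 (adjusted p = 0.000441 and 5.82e-05). Etv4 stood at 39.6, 42.0 and 44.1 and at 17.9 and 48.0 CPM, changes of 3.23 ± 0.72 and 4.00 ± 0.78 (adjusted p = 0.00425 and 0.00256). No colony library overlapped the macrophages of its model for these 3 genes. Without HPV- MEER macrophage library 4 the Etv4 change was 4.76 and the Fosl1 change 4.57, and without SCCVII colony library 2 the Spry4 and Etv4 changes were 5.83 and 3.09. Without the 3 libraries low in macrophage markers, the changes in HPV- MEER and SCCVII were 4.66 and 5.83 for Spry4, 3.32 and 5.67 for Fosl1, and 3.28 and 3.09 for Etv4 (adjusted p of at most 0.0253). Epithelial markers summed to 489.5 to 704 TPM in HPV- MEER colonies and 192 to 276 in SCCVII colonies, where Krt5 and Krt14 were at 0, and fibroblast markers to 150.3 to 491 and 1038 to 1077. Macrophages of the same models had 42.2 to 134.5 and 71.6 to 77.4 TPM of the epithelial and 5.56 to 36.1 of the fibroblast markers. The HPV- MEER line had 461 to 799 TPM of epithelial and 23.7 to 47.0 of fibroblast markers, and the SCCVII line 1197 to 1352 and 845 to 918. The kept library 1 of the HPV- MEER colonies had 489.5 and 191 TPM of these markers, and that of the SCCVII colonies 192 and 1077. The part of cells with these markers in the colony levels was not tested.

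Phlda1 and the 2 other Sprouty genes were also higher in colonies. Phlda1 stood at 119, 164 and 154 CPM in HPV- MEER colonies, above every other library of that model, and at 63.1 and 110.1 in SCCVII colonies, changes of 2.88 ± 0.22 and 2.91 ± 0.24 (adjusted p = 3.99e-05 and 2.29e-05). Spry1 stood at 42.3, 65.0 and 79.9 and at 17.3 and 19.9 CPM, changes of 2.78 ± 0.25 and 2.5 ± 0.26 (adjusted p = 6.76e-05 and 9.29e-05). Spry2 stood at 70.6, 85.0 and 80.2 CPM in HPV- MEER colonies, a change of 2.87 ± 0.32 (adjusted p = 0.000159), and at 13.8 and 18.1 in SCCVII colonies, which was not called against macrophages (adjusted p = 0.0804). The lines had 83.5 to 90.2 CPM of Spry2 in HPV- MEER, which overlapped the colonies, and 7.85 to 8.28 in SCCVII, which lay below the colonies, and colonies were not tested against lines. With all 23 libraries in the fit the SCCVII colonies were called higher than macrophages for Spry2, at 0.77 (adjusted p = 0.0122). Dusp6 stood at 160.5, 163 and 219 CPM and at 89.3 and 194, changes of -1.5 ± 0.27 and -1.47 ± 0.31 (adjusted p = 0.00149 and 0.00375). Etv5 stood at 78.2, 43.6 and 57.9 CPM and at 17.4 and 35.4, changes of -1.47 ± 0.30 and -2.58 ± 0.36 (adjusted p = 0.00271 and 0.000428). Without SCCVII colony library 2 the SCCVII changes were -2.16 for Dusp6 and -3.21 for Etv5. Dusp4 stood at 43.9 to 74.3 and at 42.4 and 80.2 CPM. Dusp5 rose in SCCVII colonies, to 12.7 and 32.1 CPM, by 2.61 ± 0.34 (adjusted p = 0.000285, and by 1.77 without colony library 2), and stood at 17.7 to 21.3 CPM in HPV- MEER colonies, where it was not called. Without the 3 libraries the changes in HPV- MEER were 2.73 for Phlda1, 2.35 for Spry1, 2.84 for Spry2, 1.44 for Dusp4, -1.54 for Dusp6 and -0.97 for Etv5, all called, and -0.63 for Dusp5, not called. In SCCVII they were 2.42 for Phlda1, 2.38 for Spry1, 1.76 for Dusp5, -2.16 for Dusp6 and -3.21 for Etv5, all called, and 0.53 for Spry2, not called.

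Between the colony groups, 2 genes were higher in SCCVII (Spry4 and Fosl1) and 4 were lower (Spry1, Spry2, Etv5 and Phlda1), beside 20.5% and 19.9% of 16238 genes, with a median of -0.34 for the 10 and -0.02 for all genes. With library totals alone, 2414 genes were higher and 4148 lower in place of 3325 and 3229. The colony groups come from different deposited tables, so table, mouse strain and tumour model cannot be told apart in this comparison. Spry1 and Spry2 were the changes kept when any 1 colony library was left out, at -1.73 ± 0.28 and -2.29 ± 0.36 (adjusted p = 0.00155 and 0.00151). The rise of Spry4 by 1.98 ± 0.45 (adjusted p = 0.0082) was 1.01 without SCCVII colony library 2 (adjusted p = 0.0995) and 2.56 without library 1. That of Fosl1, 1.58 ± 0.50 (adjusted p = 0.0319), was lost without SCCVII colony library 2 (adjusted p = 0.16) or any 1 of the HPV- MEER colony libraries (0.062 to 0.0772). The changes of Etv5 and Phlda1, -1.18 ± 0.34 and -0.73 ± 0.24 (adjusted p = 0.0218 and 0.0346), were lost without SCCVII colony library 1 (0.13 and 0.2), and that of Phlda1 also without HPV- MEER colony library 2 or 3 (0.0653 and 0.0514). Without SCCVII colony library 2, the Etv5 change was -1.80 and Dusp6 was called lower at -1.02 (adjusted p = 0.0159), and without library 1 Dusp5 was called higher at 0.79 (adjusted p = 0.03). With the 3 libraries low in macrophage markers left out, 0 were higher and 5 lower, the rises of Spry4 and Fosl1 being lost (adjusted p = 0.0932 and 0.181) and Dusp6 falling by 0.99 (adjusted p = 0.00873). In that setting the change was -2.31 for Etv5 (adjusted p = 0.000272), -1.06 for Phlda1, -1.43 for Spry1 and -2.5 for Spry2.

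The other genes of the pathway were counted in the same fits, beside 27.2% of all genes higher and 31.6% lower in the SCCVII line against HPV- MEER. Of the 16 genes of the cascade itself, from Ras and its exchange factors to ERK, 1 rose and 8 fell in that comparison. Mapk3, which encodes a form of ERK itself, rose by 0.82. Those that fell included Sos2, a Ras exchange factor, with a change of -0.73, and the scaffold Ksr1 with -0.72. The median change of the 16 cascade genes was -0.34. Their summed level lay between 1102 and 1547 TPM in all 8 group means. Other feedback inhibitors, 6 of 7 listed genes being tested, had 1 higher (Dusp9) and 5 lower there, with Il17rd, an inhibitor of FGF receptor signalling, falling by 1.27. Il17rd resembled Spry1 in the lines, with 30.7 to 56.5 CPM in HPV- MEER and 2.04 to 4.86 in HPV+ MEER, a fall of 3.49. Of 12 other target genes, 3 were higher and 8 lower in the SCCVII line, with a median of -1.56. The rises included Etv1, the third relative of Etv4 and Etv5, by 1.55, and the falls Fos by 2.59. Of 11 receptors 10 were tested, 5 higher and 2 lower in the SCCVII line, where Pdgfra rose by 5.07 and Csf1r, at 1.32 to 2.58 CPM, by 2.76, with a median of 0.90.

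In the macrophages the same lists were counted, beside 22.8% of all genes higher and 25.9% lower in HPV+ MEER against HPV- MEER, and 18.7% and 20.5% in SCCVII against HPV- MEER. Against HPV- MEER, HPV+ MEER macrophages had 5 of 12 targets higher and 2 lower, with Egr2 higher by 3.05 and Ier3 by 2.07, and Etv1 lower by 3.56. Etv1 stood at 28.1 to 35.4 CPM in HPV- MEER macrophages, 1.34 to 3.64 in HPV+ MEER and 59.8 to 69.0 in SCCVII, an order opposite to that of Dusp5. SCCVII macrophages had 2 targets higher and 6 lower, with Ier3 lower by 2.66. Of 5 phosphatases that act mainly on the stress kinases or are induced by stress, 4 were higher in HPV+ MEER macrophages, led by Dusp2 at 2.30, which stood at 36.3 to 61.9 CPM against 8.22 to 14.6 in HPV- MEER and 2.28 to 2.90 in SCCVII macrophages. In the cascade 6 of 16 rose in HPV+ MEER macrophages, the largest being Ksr1, a scaffold for Raf and MEK, by 2.11, and 2 fell. The other feedback list had 1 higher and 4 lower, with changes of -3.68 for Il17rd and -1.27 for Dusp7. Fos exceeded the line in the macrophages of each model, by 8.21 in HPV- MEER, 7.51 in HPV+ MEER and 10.38 in SCCVII, and Dusp1 by 6.11, 6.45 and 4.91, while Fosl1 was lower in each. For these genes too, the handling of sorted and cultured cells cannot be told apart from cell type. Csf1r, 2480 to 3555 CPM in the macrophages of the 3 models, was not called between them.

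Likeness over the 8 group means was a description only, since the groups share cell type and tumour model and no p is given. Among the 10, by Pearson r of mean log2(CPM + 1), Etv4 and Fosl1 (0.926), Spry4 and Fosl1 (0.921) and Dusp4 and Etv4 (0.897) were most alike, and Dusp6 and Etv5 reached 0.769. Etv5 and Spry4 (-0.887) and Dusp6 and Spry4 (-0.868) ran most opposite, and Etv4 and Etv5 gave -0.530. Over 11240 genes, the one most like each member was Nmt2 for Dusp4 (0.993), Sdhaf2 for Dusp5 (0.956), Orai3 for Dusp6 (0.972), Slc16a11 for Spry1 (0.967) and Sgms2 for Spry2 (0.971). It was Rpap3 for Spry4 (0.992), Eva1c for Etv4 (0.991), N4bp2 for Etv5 (0.971), Pip5k1a for Fosl1 (0.998) and Cep19 for Phlda1 (0.980). The next after these were Pgrmc1, Ptpn12, Crlf2, Sec24d, Cyp1b1, Ccdc92, Mllt3, Mark2, Ankrd1 and Cbarp in the same order of genes, with r from 0.934 to 0.997.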

How the data were processed

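RNA sequencing libraries (TruSeq Stranded mRNA) were described in the labels' protocols for 23 samples. The authors deposited expected counts and TPM per gene in 2 tables, of 20 and 3 libraries, with RSEM column names per the file headers. The submitters' processing notes name STAR 2.5.3a and RSEM 1.3.0. For strand setting, annotation release and read filters, nothing is given in the sources used here. RSEM divides reads that fit several genes. TPM were used as deposited, and only to compare or sum levels of different genes.

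Gene identifiers were matched to GENCODE M21 symbols (35243 of 36793, 95.8%). No value of the 10 genes was at or under 3 counts in all libraries of a group. Expected counts were rounded (13.1% of all values and 0.4% of those of the 10 genes were not whole) and tested with edgeR 4.0.16 (R 4.3.3): TMM, filterByExpr (minimum count 10, total 15), quasi-likelihood fit, prior count 0.125 and Benjamini-Hochberg adjustment over all genes tested, at 0.05. The 9 line libraries, the 9 macrophage libraries, these 18 together, and the 11 colony and macrophage libraries of HPV- MEER and SCCVII each shared a fit. Levels are CPM with TMM factors over 23 libraries (17014 genes). The script was tested on simulated data with known changes, with the same spread between libraries for every fit. The estimated spread (biological coefficient of variation) was 16% to 18.1% in the fits without colonies and 40.2% in the fit with them. The simulation therefore does not represent the colony comparisons. No 2 libraries of a group agreed within sampling noise, the smallest chi-square per gene being 3.23.

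Alternatives were DESeq2 1.42.0, RLE size factors, library totals, no filter on low counts, a replicate block, all 23 libraries in the fit, and each library left out in turn; leaving out colony libraries low in macrophage markers was added after seeing the data. The 10 genes, the other lists and the tests were chosen with earlier results of these data known. All 10 genes were described by name. From the other lists, at most the 2 called genes that rose most and the 2 that fell most in a comparison were named, plus genes of the cascade, and the 2 genes most like each member, among named genes reaching 10 CPM in a group. Other genes named from the lists (Csf1r, Fos and Dusp1 across cell types, Etv1 and Il17rd levels) were chosen after their values were seen. Figures were drawn with matplotlib 3.10.9.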

Additional observations from a re-analysis of the deposited data

Results flagged for a closer look

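The change between tumour models differed between macrophages and lines for 9 gene and model combinations, by the interaction term in edgeR over 18 libraries. For HPV+ against HPV- MEER the macrophage change minus the line change was -1.45 for Dusp4, 2.01 for Dusp5, 2.90 for Spry1 and 0.77 for Phlda1. Spry1 and Dusp5 had adjusted p under 0.05 without any 1 of the libraries and under each other alternative, and the Phlda1 term was lost with library totals alone, at 0.43 (adjusted p = 0.127), and with all 23 libraries in the fit, at 0.73 (0.0619). For SCCVII against HPV- MEER it was 2.60 for Dusp4, 2.26 for Dusp6, 3.25 for Spry2, -1.61 for Spry4 and 1.03 for Etv5, which comprise 4 genes lower in the SCCVII line and the 1 gene higher there. Spry4 in macrophages rests on 50 to 70 counts per group.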

How the results depend on the processing

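The number of the 10 genes called stayed within 1.5 times the reported number in each of the 14 comparisons under each alternative. Over 1552 recomputed changes of single genes called under at least 1 setting, 1446 kept direction and call, 50 lost the call, 38 gained it and 18 changed sign. None of the changes that changed sign was called as reported. For HPV+ against HPV- MEER macrophages, Fosl1 was -0.084 with library totals, and leave-one-out ranges were -0.16 to 0.051 for Dusp6, -0.85 to 1.03 for Etv4 and -0.14 to 1.11 for Fosl1. Between colony groups Dusp5 was -0.62 without the libraries low in macrophage markers, and ranges were -0.58 to 0.79 for Dusp5 and -1.02 to 0.13 for Dusp6. In the interaction for HPV status Fosl1 was -0.32 with library totals, and ranges were -1.54 to 0.29 for Etv4 and -0.30 to 0.92 for Fosl1. Library totals moved the median of all genes from near 0 to between -0.65 (HPV+ MEER macrophages against line) and 0.32 (HPV- MEER colonies against macrophages), so changes there are relative to that shift. With all 23 libraries in a fit the genes called fell from 6853 to 3708 between HPV+ and HPV- MEER macrophages and from 5527 to 2944 between SCCVII and HPV- MEER macrophages.

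Correlations of residuals between same-numbered libraries were -0.20 to 0.11 (median 0.02) in lines, -0.04 to 0.15 in macrophages (median 0.10, against -0.02 for different numbers, whose highest was 0.08) and -0.21 to 0.39 (median 0.02) with colonies. Not every pair was over 0.1 and the labels give no shared source, so the numbers were not taken as a pairing. With a replicate block, genes called of the 10 went from 4 to 6 between HPV+ and HPV- MEER macrophages and from 6 to 4 between colonies. In the macrophage fits number 4 occurs in 1 library, so the block drops HPV- MEER library 4: Etv4 was 1.04 (adjusted p = 0.0092) between HPV+ and HPV- MEER macrophages, and 0.35 in the interaction. Macrophage levels of Spry4, under 1.1 CPM, limit what can be seen there.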
